A study of Mus musculus with 3 samples.

Results

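The genes of the major histocompatibility complex (MHC) and of antigen processing were examined in granulocyte progenitors, the bone marrow cells that give rise to neutrophils. The set was chosen by gene symbol, and all 38 listed genes were found among the 24421 symbols of the deposited files. It comprises 10 class I heavy chains, the class I light chain, 5 genes of peptide transport, loading and trimming, 5 of the immunoproteasome and its activator, 3 class II chains, 7 genes of class II peptide exchange and processing, 5 transcriptional regulators and 2 MHC-like genes. Of these, 32 had an RPKM (reads per kilobase of gene model, scaled to library size) reaching 1 in any library and were compared. H2-Q6, H2-Q7, H2-Eb1, H2-Oa, H2-Ob and Ciita stayed below that level in all 3 libraries and are given by value.

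RNA was sequenced from 3 groups of female mice with 1 library each, and the progenitors had been purified by flow cytometry. The NTB library came from mice without a tumor and is the control. The 4T1-TB library came from mice carrying 4T1, a mouse mammary carcinoma line, implanted orthotopically. Both were F1 mice of the mixed H-2b/d haplotype, so semi-syngeneic to the tumor. The IRF8-deficient library came from C57BL/6 mice of the H-2b haplotype that lack IRF8, a transcription factor of myeloid and B-cell lineages, and no tumor is named for them. The strain, with its H-2 haplotype, and the Irf8 genotype therefore both differ between IRF8-deficient and either other library, and their parts in a difference cannot be told apart. The number and age of the mice behind a library are not stated in the labels. With 1 library per group no difference has a replicate check and none was tested, and all intervals are 95% intervals for counting error only.

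Class I molecules sit on nearly all nucleated cells and present peptides cut in the cytosol, largely by the proteasome. In the immunoproteasome, which interferon-gamma induces, Psmb9, Psmb8 and Psmb10 take the places of the constitutive catalytic subunits Psmb6, Psmb5 and Psmb7. Tap1 and Tap2 form the transporter that carries the peptides into the endoplasmic reticulum, Tapbp (tapasin) bridges it to empty class I molecules, and Erap1 trims the peptides. B2m (beta-2 microglobulin) is the light chain that class I heavy chains and several class I-like molecules need to reach the surface. Class II molecules are built from an alpha and a beta chain, occur mainly on professional antigen-presenting cells and carry peptides from the endosomal route, where Cd74 (the invariant chain) guards the groove until H2-DM exchanges its remnant for peptide. Nlrc5 is the transactivator of class I genes and Ciita that of class II genes, and both act through the RFX complex (Rfx5, Rfxap and Rfxank) on the shared SXY promoter module.

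The promoters shown are those of the 4 class I genes called higher in IRF8-deficient than in NTB, of Tap1 and of the class II chain H2-Aa. They were picked after the differences and the motif matches had been seen, so they do not stand for all genes called. H2-DMa, H2-DMb1 and H2-DMb2, which were also called, are not printed. The RefSeq windows of H2-DMa and H2-DMb1 hold a Y box and none of the other motifs searched. That of H2-DMb2 holds a Y box and the gamma-activated site TTCNNNGAA. RefSeq promoters (GRCm38.p6, the assembly called mm10) were matched for 28 of the 38 genes. Bases are printed 5′ to 3′ on the strand of the gene and end at the base before the RefSeq start site. The H2-K1 stretch is chr17:34000334-34000583 on the minus strand and that of H2-D1 is chr17:35262844-35263093 on the plus strand. The B2m stretch is chr2:122147437-122147686 on the plus strand, and that of H2-T23, a class Ib heavy chain (Qa-1), is chr17:36032702-36032951 on the minus strand. The Tap1 stretch, chr17:34187331-34187555 on the plus strand, is the whole interval of 225 bases that separates the RefSeq start of Tap1 from that of Psmb9, which is read in the opposite direction. The H2-Aa stretch is chr17:34287824-34288073 on the minus strand. Capitals mark the X2 core TGACG and the Y box ATTGG, each on either strand. They also mark, on either strand, the interferon-stimulated response element (ISRE), searched as a pair of GAAA words with any 2 bases between them.
H2-K1: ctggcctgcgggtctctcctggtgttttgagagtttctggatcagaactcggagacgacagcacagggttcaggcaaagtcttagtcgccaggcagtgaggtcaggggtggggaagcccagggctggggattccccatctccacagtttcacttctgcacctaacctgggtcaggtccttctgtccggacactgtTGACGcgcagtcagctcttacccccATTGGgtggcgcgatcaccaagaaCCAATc
H2-D1: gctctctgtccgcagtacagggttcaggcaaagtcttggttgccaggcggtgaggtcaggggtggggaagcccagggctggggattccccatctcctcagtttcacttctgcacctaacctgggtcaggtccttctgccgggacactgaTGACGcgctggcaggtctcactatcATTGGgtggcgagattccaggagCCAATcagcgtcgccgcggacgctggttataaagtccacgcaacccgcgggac
B2m: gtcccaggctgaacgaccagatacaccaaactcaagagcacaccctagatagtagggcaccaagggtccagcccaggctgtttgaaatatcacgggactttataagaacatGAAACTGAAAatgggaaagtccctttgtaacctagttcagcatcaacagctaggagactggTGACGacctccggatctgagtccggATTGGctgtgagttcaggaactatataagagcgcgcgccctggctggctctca
H2-T23: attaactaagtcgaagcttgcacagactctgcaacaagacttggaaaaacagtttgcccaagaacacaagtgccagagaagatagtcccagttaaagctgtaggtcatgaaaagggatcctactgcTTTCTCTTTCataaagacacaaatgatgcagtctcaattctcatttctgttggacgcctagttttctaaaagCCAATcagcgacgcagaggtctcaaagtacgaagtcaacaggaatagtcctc
Tap1: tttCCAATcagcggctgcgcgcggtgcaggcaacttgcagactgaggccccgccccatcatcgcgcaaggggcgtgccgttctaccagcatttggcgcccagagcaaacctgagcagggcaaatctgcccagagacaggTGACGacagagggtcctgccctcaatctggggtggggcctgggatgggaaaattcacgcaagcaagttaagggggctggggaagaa
H2-Aa: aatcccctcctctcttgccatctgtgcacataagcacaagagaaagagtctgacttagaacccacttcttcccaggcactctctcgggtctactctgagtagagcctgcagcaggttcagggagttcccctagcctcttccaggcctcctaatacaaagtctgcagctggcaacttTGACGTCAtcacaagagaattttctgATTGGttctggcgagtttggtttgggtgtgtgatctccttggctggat
In H2-D1 the X2 core began at −101 and the Y box at −76, and in B2m at −78 and −53, a spacing of 25 bases in both. In H2-K1 they began at −55 and −30, also 25 bases apart, from the RefSeq start used here. In H2-Aa the spacing was 26 bases, from −74 to −48, and its X2 core reads as TGACG on both strands, which overlap. The ISRE of B2m began at −139, and that of H2-T23 at −124 on the opposite strand.

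Over the whole RefSeq window of 300 bases (250 before and 50 after the start), an X2 core followed on the same strand by a Y box 20 to 30 bases on was found for 6 of the 28 genes (H2-K1, H2-D1, H2-Q7, H2-M3, B2m and H2-Aa), against 0.435% of all 32851 promoters in the table. This spacing was chosen after the matches had been seen. For this and every motif below, a gene counted if any of its RefSeq promoters matched, while the share over all is per promoter. A gene with several promoters, such as H2-K1, thus had more than 1 window to match, and the counts and shares are in unlike units. The Y box alone was found for 21 of the 28 genes against 37.4% of all promoters, and the X2 core alone for 11 against 20.8%. The ISRE letters were found for 6 genes (H2-T22, H2-T23, B2m, Erap1, Psme1 and Ctss) against 3.44% of all promoters. The gamma-activated site TTCNNNGAA was found for H2-M3, Psmb8 and H2-DMb2, against 8.30%. The ETS-IRF composite (a GGAA word, any 2 bases, then a second word GAAA), the type of element that IRF8 binds with an ETS partner, was found for Psme1, against 2.72% of all promoters, and there it overlapped the ISRE match. A match is a string of letters in a window, not a measured binding site. Only exact matches were searched, so a gene without a match may still hold a variant of the motif.

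**Figure D1:**
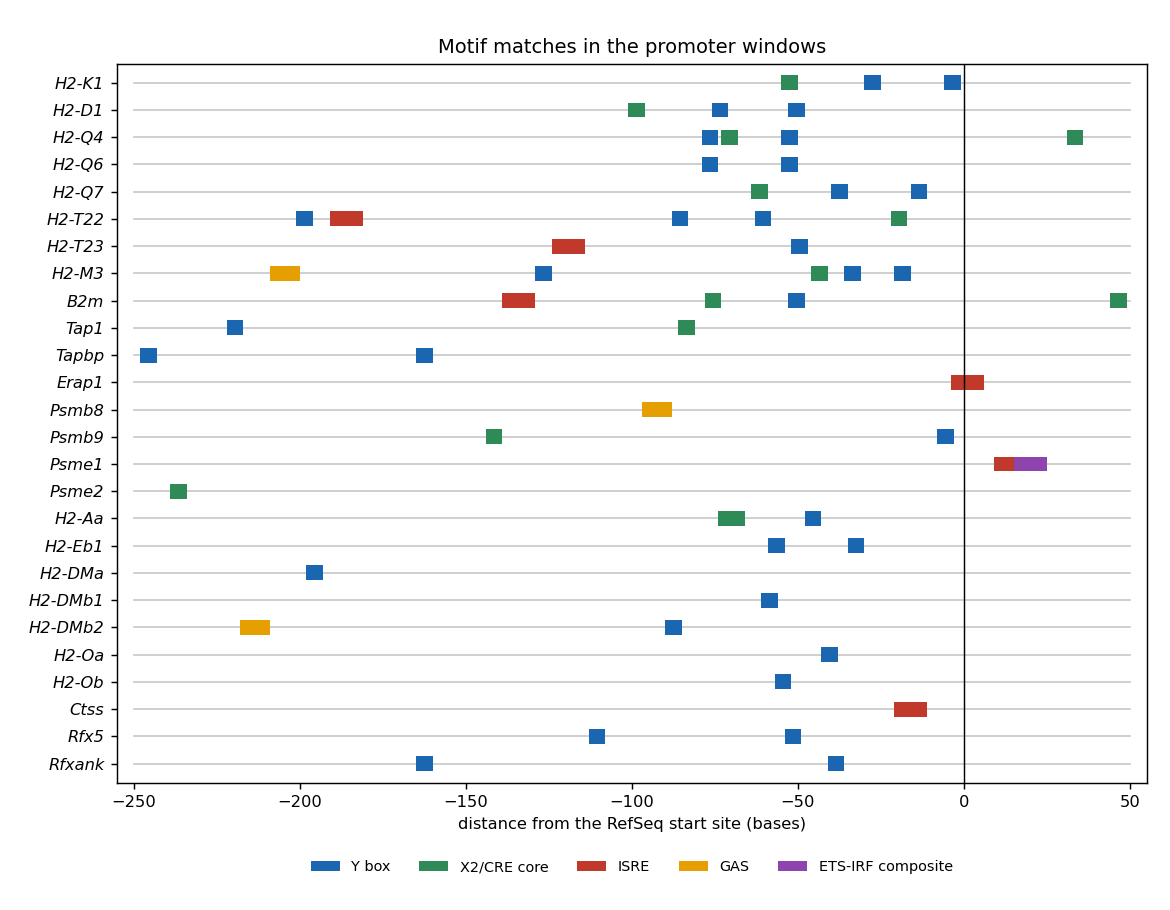
Positions of the 5 motifs around the RefSeq start site, from 250 bases before to 50 after it, for the 26 genes with at least 1 match, on either strand. The X2 core and Y box of H2-K1, H2-D1, B2m and H2-Aa form pairs 25 or 26 bases apart upstream of the start.

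The libraries held 42084736 recovered reads in the NTB, 23248423 in the 4T1-TB and 35769277 in the IRF8-deficient library, and the set took 0.235%, 0.186% and 0.281% of them. The ribosomal RNA precursor Rn45s took 1.802%, 6.36% and 13.8% of reads, and the deposited RPKM imply library sizes of 1.06, 0.955 and 0.730 times the summed reads. Scaling by summed reads instead divides ratios of IRF8-deficient to NTB by 1.46 and moves the median difference of all genes from −0.02 to −0.51, so differences are also given relative to that median. On the same scaling 464 genes passed the call upward and 1976 downward in IRF8-deficient relative to NTB, against 936 and 611 on the deposited values. Irf8 itself (chr8:120736358-120756694) stood at an RPKM of 43.8 in the NTB, 8.60 in the 4T1-TB and 13.7 in the IRF8-deficient library, so RNA reads were still assigned to it in the library labelled IRF8-deficient. It was 5.09-fold lower (4.69 to 5.52) in 4T1-TB and 3.18-fold lower (3.00 to 3.39) in IRF8-deficient than in NTB. Whether the remaining reads come from a part of the gene outside the disrupted region cannot be read from a single value per gene.

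Class I RNA was abundant in all 3 libraries and class II RNA was scarce. Where 3 values follow a gene without names, they stand in the order NTB, 4T1-TB, IRF8-deficient. Heavy chain RPKM summed to 308 in the NTB, 317 in the 4T1-TB and 820.3 in the IRF8-deficient library, and B2m alone stood at 627 (24109 reads), 512 (9757 reads) and 1520.5 (34065 reads). By level B2m ranked at place 102 of all genes in the NTB, 132 in the 4T1-TB and 32 in the IRF8-deficient library. The class II alpha and beta chains H2-Aa, H2-Ab1 and H2-Eb1 summed to an RPKM of 3.05, 2.23 and 5.39. Class I heavy chains thus exceeded class II chains 101-fold, 143-fold and 152-fold on this per-length scale. Ciita, the class II transactivator, had 4 reads in the NTB, 1 in the 4T1-TB and 12 in the IRF8-deficient library, whereas Nlrc5, the class I transactivator, stood at an RPKM of 4.71, 2.53 and 5.19.

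**Figure D2:**
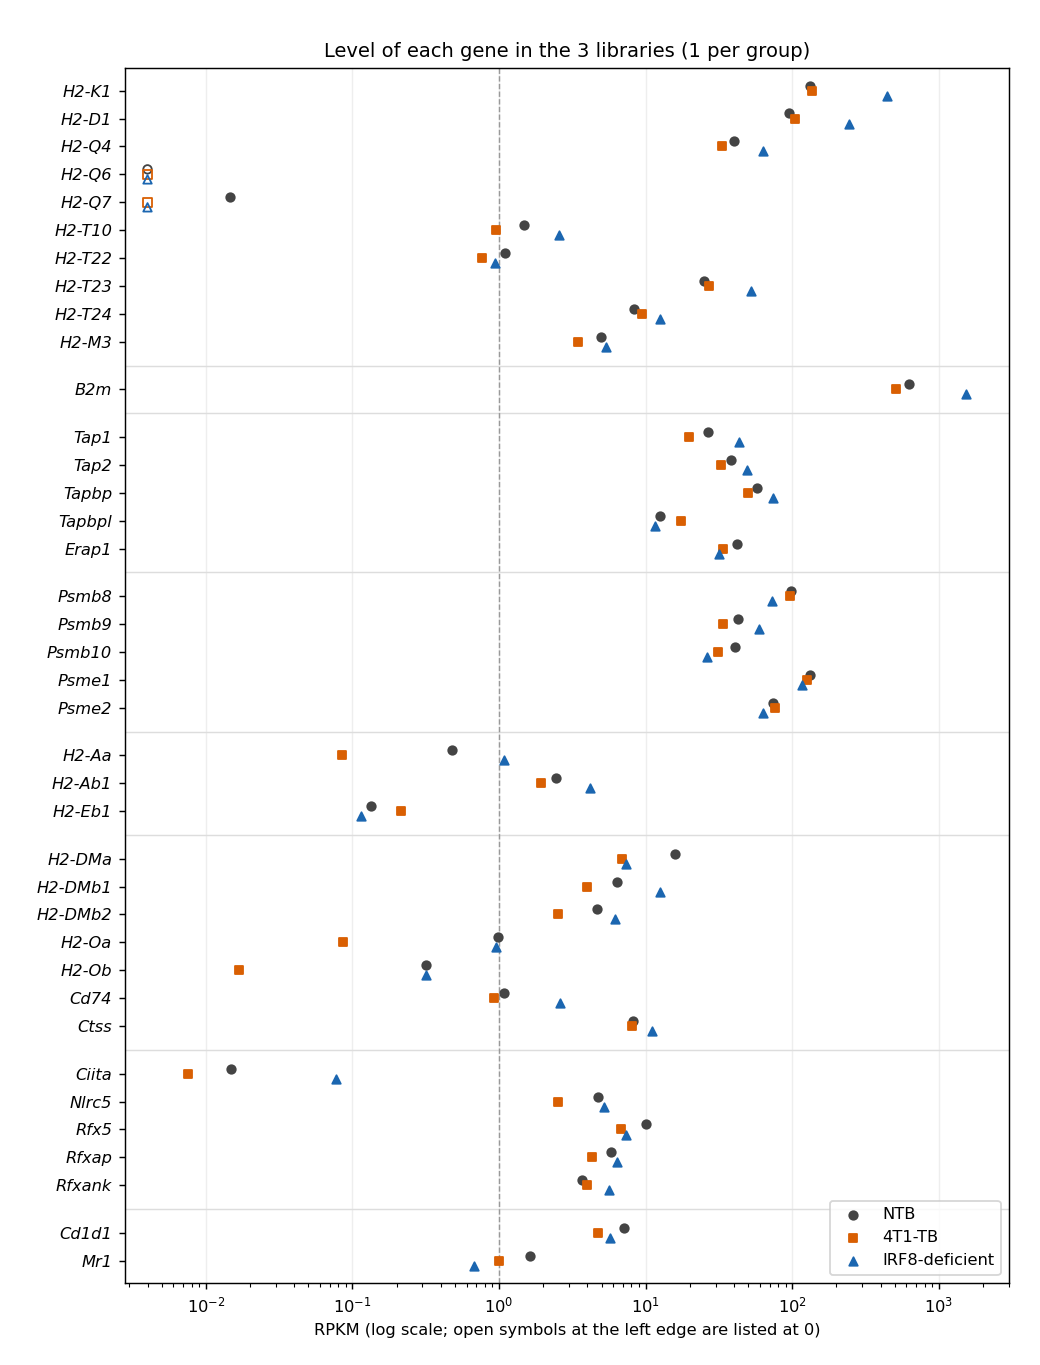
RPKM of each gene of the set in each library on a log axis, grouped by role, with open symbols for genes listed at 0 and a dashed line at an RPKM of 1. B2m has the highest level of the set in all 3 libraries, and the class II chains, H2-Oa, H2-Ob and Ciita lie near or below the line.

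Between the libraries of tumor-bearing and control mice, the set differed by small amounts, and mostly downward in 4T1-TB. At a difference of 1 or more on log2(RPKM + 1), none of the 32 genes was higher in 4T1-TB, where 1.67% of all genes compared passed, and 1 was lower, where 1.35% of all genes passed. The median difference of the set was −0.28 against 0.01 for all genes, and 25 of the 32 lay below 0, against 49.0% of all genes. The counting interval of the RPKM ratio lay wholly below 1 for 20 genes and wholly above 1 for 3. The share of all genes with such intervals was not computed. These counts therefore lack a baseline and are not read as a result about the set.

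The gene called lower was H2-DMa, the alpha chain of the class II peptide exchanger (chr17:34119541-34139101). Its RPKM was 15.8 in the NTB, 6.87 in the 4T1-TB and 7.30 in the IRF8-deficient library, so NTB stood above both others. It was 2.29-fold lower (2.00 to 2.64) in 4T1-TB than in NTB, a difference of −1.09. Its partner chains were lower by less: H2-DMb1 stood at 6.38 in NTB and 3.96 in 4T1-TB, and H2-DMb2 at 4.63 and 2.52. On log2(RPKM + 1) the next differences in size were those of Nlrc5 (−0.69), H2-DMb2 (−0.68) and H2-DMb1 (−0.57). Nlrc5 was 1.86-fold lower (1.66 to 2.09), and Rfx5, its DNA-binding RFX partner, 1.49-fold lower (1.36 to 1.63).

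H2-DO, the inhibitor of H2-DM, was near 0 in 4T1-TB. H2-Oa, its alpha chain, had 46 reads in the NTB, 2 in the 4T1-TB and 26 in the IRF8-deficient library, and was 11.4-fold lower (2.98 to 97) in 4T1-TB than in NTB. H2-Ob, its beta chain, had 38, 1 and 22 reads and was 18.8-fold lower (3.18 to 764) in 4T1-TB. H2-Aa, the class II alpha chain, had 23, 2 and 30 reads, 5.70-fold lower (1.41 to 49.9) in 4T1-TB. These 3 genes rested on few reads, and all had an RPKM of at most 0.979 in NTB. The ratios of H2-Ab1, the beta chain that pairs with H2-Aa, and of Cd74 were nearer to 1: H2-Ab1 stood at an RPKM of 2.43 in NTB and 1.92 in 4T1-TB, and Cd74 at 1.07 and 0.923, with intervals of the ratio that include 1.

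The class Ia heavy chains were close to level in 4T1-TB. H2-K1 stood at an RPKM of 133 in NTB and 137 in 4T1-TB, a ratio of 1.03 (0.995 to 1.07), and H2-D1 at 94.3 and 105, a ratio of 1.12 (1.07 to 1.16). B2m was 1.23-fold lower (1.2 to 1.254) and Tap1 1.35-fold lower (1.27 to 1.44). Tapbpl, a tapasin-related peptide editor, was the gene of the set with the largest positive difference, at an RPKM of 12.6 in NTB and 17.4 in 4T1-TB (ratio 1.38, 1.26 to 1.51). The sign of the small differences of H2-K1, H2-T23, Psme2, Ctss and Rfxank depended on the scaling. Relative to the median of all genes no gene of the set changed sign in this comparison under any of the 5 scalings.

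Between IRF8-deficient and NTB the largest differences on log2(RPKM + 1), which understates low genes, were in class I molecules themselves. On the deposited values 4 of the 32 genes (12.5%) were higher, where 8.78% of all genes compared passed, and 1 (3.13%) was lower, where 5.73% of all genes passed. The 4 were H2-K1, H2-D1, H2-T23 and B2m, that is 3 heavy chains and their light chain, and the lower gene was H2-DMa. By ratio, the low genes Cd74 (2.42-fold higher), H2-Aa (2.24-fold higher) and Mr1 (2.41-fold lower) differed by more than H2-T23 (2.08-fold). With a pseudocount of 0.1 Cd74 and H2-Aa were also called higher and Mr1 lower. The set had a median difference of 0.35, which lay 0.38 above the median of all genes, and 21 of the 32 lay above 0, against 48.4% of all genes. H2-Aa reached an RPKM of 1 only in IRF8-deficient (1.07) and H2-T22 only in NTB (1.09). The filter therefore favoured the direction of their differences in every comparison with those libraries.

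H2-K1 (chr17:33996017-34000347), a classical class Ia heavy chain, stood at an RPKM of 133 in the NTB, 137 in the 4T1-TB and 439.6 in the IRF8-deficient library. The NTB and 4T1-TB libraries were alike and the IRF8-deficient library, which differs in strain and genotype together, stood apart, 3.30-fold (3.22 to 3.38) above NTB. H2-D1 (chr17:35262730-35267499), the other class Ia gene, stood at 94.3, 105 and 244, 2.58-fold higher (2.51 to 2.66) in IRF8-deficient than in NTB. B2m (chr2:122147686-122153083), which lies outside the MHC, was 2.42-fold higher (2.38 to 2.46). H2-T23 (Qa-1, the class Ib ligand of NKG2 receptors) stood at an RPKM of 25.1, 27.1 and 52.1 and was 2.08-fold higher (1.94 to 2.23). Their differences were 1.72, 1.36, 1.28 and 1.03 for H2-K1, H2-D1, B2m and H2-T23. Under summed-read scaling these became 1.17, 0.82, 0.73 and 0.50, so that H2-K1 alone still passed. Relative to the median of all genes, which moved with the scaling, all 4 passed both on the deposited values and under summed reads, while H2-DMa, at −0.99, did not.

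**Figure D3:**
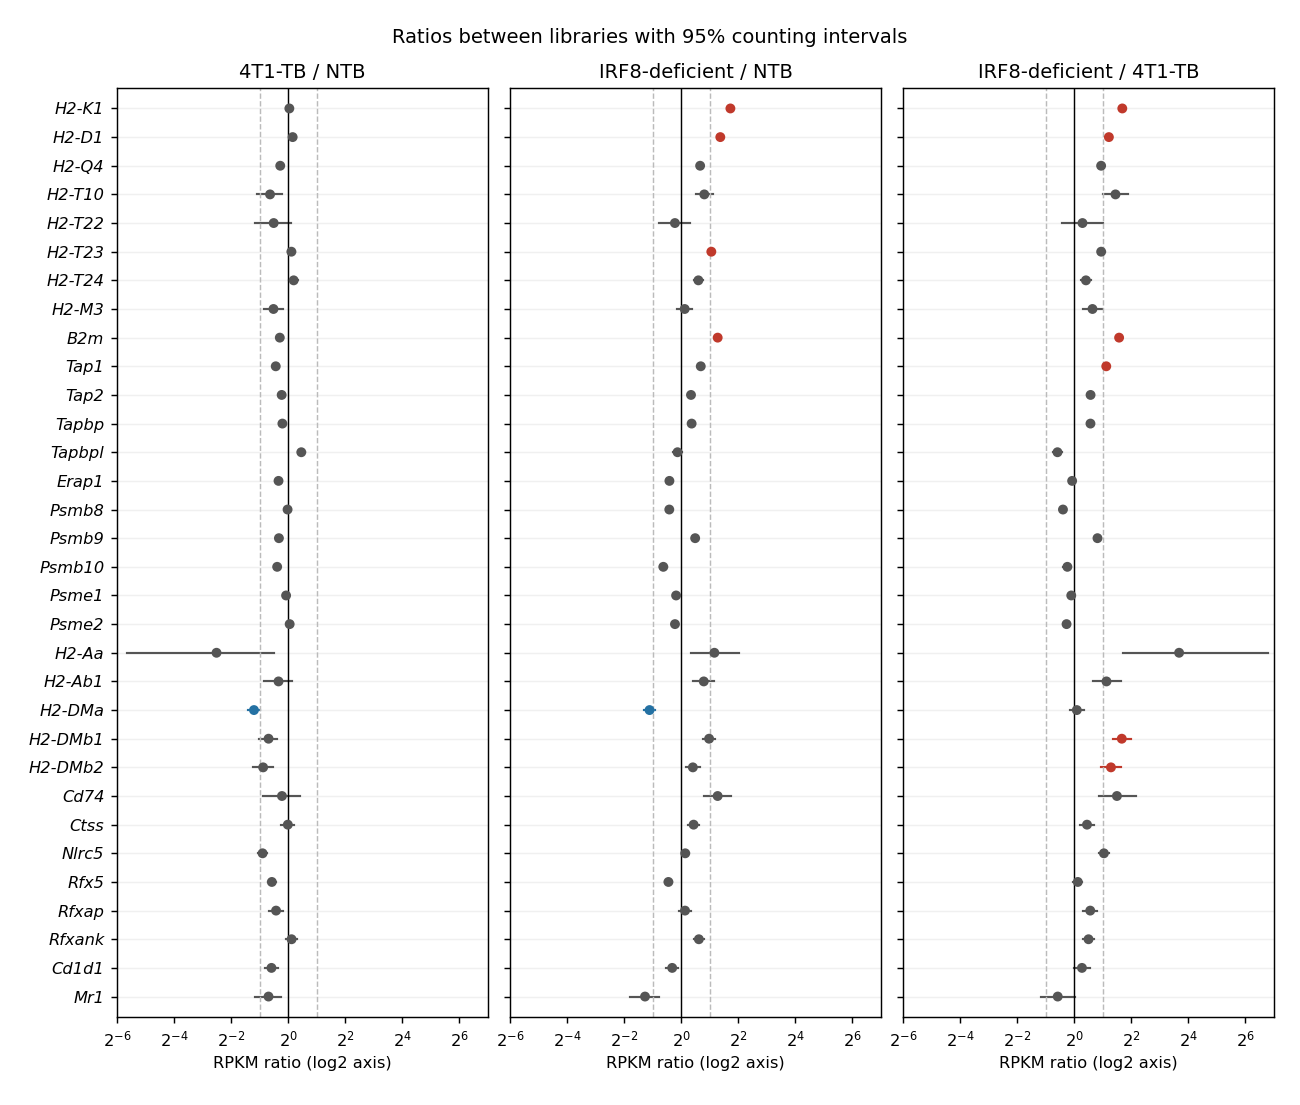
Ratio of RPKM between each pair of libraries for every gene compared, on a log2 axis with 95% counting intervals, red for genes called higher, blue for genes called lower, and dashed lines at 0.5 and 2. H2-K1, H2-D1, B2m and H2-T23 lie beyond 2 in IRF8-deficient against NTB, and H2-DMa lies below 0.5 in both comparisons with NTB. Cd74 (2.42), H2-Aa (2.24) and Mr1 (0.415) also lie past these lines in IRF8-deficient against NTB. So does H2-Aa (0.175) in 4T1-TB against NTB, but none of these was called on log2(RPKM + 1).

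Both comparisons with NTB share that library. H2-DMa illustrates this, with a difference of −1.09 in 4T1-TB and −1.01 in IRF8-deficient, both measured from an NTB value of 15.8. H2-DMb1 lay on the other side of NTB in IRF8-deficient, at an RPKM of 6.38 in NTB and 12.6 in IRF8-deficient, a difference of 0.88 that lay just under the call. The ratio of H2-DMa to the summed beta chains H2-DMb1 and H2-DMb2 was 1.43 (1.30 to 1.58) in the NTB, 1.06 (0.877 to 1.28) in the 4T1-TB and 0.390 (0.340 to 0.447) in the IRF8-deficient library. Such a ratio within a library does not depend on how the library is scaled. The beta chain copies share sequence, and 22.7% of the 50-base windows of H2-DMb1 transcripts and 25.9% of those of H2-DMb2 also occur in transcripts of other genes, so the split between them is uncertain.

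Genes of peptide transport and trimming differed by less, and not all in 1 direction. Tap1 stood at an RPKM of 26.8 in the NTB, 19.8 in the 4T1-TB and 43.0 in the IRF8-deficient library, and Tap2 at 38.5, 32.9 and 48.8. Tapbp stood at 57.2, 49.7 and 73.6, in the same order. Their ratios of IRF8-deficient to NTB were 1.61 (1.53 to 1.69), 1.27 (1.21 to 1.33) and 1.29 (1.24 to 1.33), none past the call, and the differences of Tap2 and Tapbp turned negative under summed-read scaling. Erap1 went the other way, at 42.3, 33.5 and 31.7, and was 1.33-fold lower (1.28 to 1.39) in IRF8-deficient than in NTB.

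The immunoproteasome genes split. Psmb9, which replaces Psmb6, stood at an RPKM of 42.4 in the NTB, 33.9 in the 4T1-TB and 59.4 in the IRF8-deficient library. Psmb8, which replaces Psmb5, stood at 97.6, 96.2 and 73.0, and Psmb10, which replaces Psmb7, at 40.5, 31.0 and 26.2. In IRF8-deficient against NTB, Psmb9 was thus 1.40-fold higher (1.33 to 1.48), Psmb8 1.34-fold lower (1.27 to 1.40) and Psmb10 1.55-fold lower (1.43 to 1.67). The difference of Psmb9 turned to −0.05 under summed-read scaling, and there Psmb10 passed the call at −1.14. Relative to the median of all genes Psmb9 stayed above 0, and Psmb8 and Psmb10 below it, under all 5 scalings. Psmb8 and Psmb9 are neighbours: on the chromosome the order is Psmb9, Tap1, Psmb8, Tap2, within chr17:34181987-34216321. In IRF8-deficient the genes on either side of Psmb8 were higher than in NTB on the deposited values while Psmb8 was lower.

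The constitutive partners stood higher in 4T1-TB than in the other libraries: Psmb5 at an RPKM of 66.3, 86.8 and 63.4, Psmb6 at 77.2, 92.4 and 75.5, and Psmb7 at 86.0, 110.8 and 93.1. Ratios to these partners are altered by no scaling. Psmb9 over Psmb6 was 0.549 (0.523 to 0.576) in the NTB, 0.366 (0.341 to 0.393) in the 4T1-TB and 0.787 (0.742 to 0.835) in the IRF8-deficient library. Psmb8 over Psmb5 was 1.47 (1.41 to 1.54), 1.11 (1.04 to 1.18) and 1.15 (1.08 to 1.23). Psmb10 over Psmb7 was 0.470 (0.446 to 0.496), 0.280 (0.258 to 0.302) and 0.281 (0.260 to 0.304). All 3 ratios were therefore lower in 4T1-TB than in NTB, with intervals that do not overlap, and in IRF8-deficient the first was highest while the others stood near their 4T1-TB values. On the deposited values Psmb8 itself was level between 4T1-TB and NTB (ratio 0.986, 0.941 to 1.03), and Psmb5 was 1.31-fold higher (1.23 to 1.39). On that scale the lower ratio of the pair lies in its denominator. Under summed-read scaling the difference of Psmb8 moved from −0.02 to −0.17, so this split depends on the scaling. Psme1 over Psme3, which forms the other activator of this family, was 2.16, 1.63 and 2.88, and Psme2 over Psme3 was 1.21, 0.995 and 1.57. In IRF8-deficient those ratios were above NTB although Psme1 (132, 126 and 117) and Psme2 (74.0, 76.8 and 63.6) were not, since Psme3 stood at 61.1, 77.1 and 40.4. Psme1 and Psme2, the subunits of the PA28 activator, kept close to each other, at a ratio of 1.78 (1.71 to 1.86), 1.64 (1.54 to 1.74) and 1.83 (1.73 to 1.95). Their copies complicate Psme2, since 28.3% of its windows occur in transcripts of other genes, chiefly Psme2b.

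**Figure D4:**
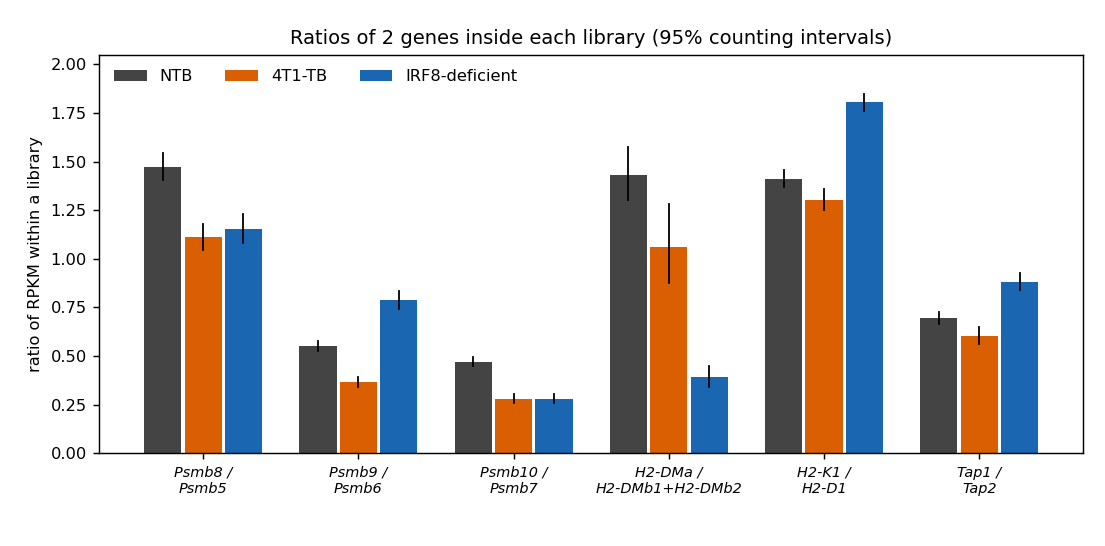
Ratios of RPKM between genes of the same library with 95% counting intervals, bars drawn from 0. Psmb9 over Psmb6 is lowest in 4T1-TB and highest in IRF8-deficient, and H2-DMa over its beta chains is 1.43 in NTB and 0.390 in IRF8-deficient.

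Among heavy chains the balance also differed. H2-K1 over H2-D1 was 1.41 (1.37 to 1.45) in the NTB, 1.30 (1.249 to 1.36) in the 4T1-TB and 1.804 (1.76 to 1.85) in the IRF8-deficient library, and the pair made up 73.7%, 76.4% and 83.3% of heavy chain RPKM. B2m over the summed heavy chains was 2.03, 1.61 and 1.85. H2-Q4, a Qa-region class Ib gene, stood at an RPKM of 40.1, 33.1 and 63.4, and H2-T24, a T-region gene, at 8.32, 9.51 and 12.6. H2-M3, which presents N-formylated peptides, stood at 4.97, 3.48 and 5.40, and its interval in IRF8-deficient against NTB included 1. H2-T10 (a polymorphic pseudogene in GENCODE) and H2-T22, known as ligands of a subset of gamma delta T cells, stood at 1.47, 0.948 and 2.58 and at 1.09, 0.768 and 0.937. H2-Q6 was listed at 0 in all 3 libraries, and H2-Q7 had 1 read in NTB and was listed at 0 in the others.

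Reads of these paralogs can be lost or moved between copies. The share of 50-base windows that also occur in transcripts of other genes was 9.63% for H2-K1, 12.8% for H2-D1, 36.4% for H2-Q4, 34.97% for H2-Q6, 50.4% for H2-T10 and 53.5% for H2-T22, and 0 for B2m. The mm10 reference is C57BL/6, the strain of the IRF8-deficient library, while the F1 libraries also hold H-2d alleles. The part of that mismatch in the higher class I heavy chain values was not tested. In all, 23 genes of the set lie in this region of chromosome 17, among them Tap1, Tap2, Psmb8, Psmb9, H2-DMa, H2-DMb1 and H2-DMb2. The part of the mismatch in their differences, and in ratios within a library that include them, was not tested either. Among other MHC genes that are not in the set, H2-Q2 had an RPKM of 3.33 in the NTB, 3.20 in the 4T1-TB and 0.0348 (1 read) in the IRF8-deficient library. H2-Q5 stood at 5.05, 2.40 and 14.2 and H2-K2 at 2.23, 2.62 and 6.22. H2-Q10 stood at 0.106, 1.01 and 2.16. These 4 were the genes called in IRF8-deficient against NTB among the 8 compared of 26 listed, 3 higher and 1 lower. Ulbp1, a ligand of NKG2D, was called higher in IRF8-deficient against 4T1-TB, at 18.1 against 6.86, as was H2-Q5, and H2-Q2 was called lower.

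Class II genes were low in every library. H2-Ab1 stood at an RPKM of 2.43 in the NTB, 1.92 in the 4T1-TB and 4.21 in the IRF8-deficient library, and Cd74 at 1.07 (68 reads), 0.923 (29 reads) and 2.60 (96 reads). In IRF8-deficient against NTB, H2-Ab1 was 1.73-fold higher (1.35 to 2.22), Cd74 2.42-fold (1.76 to 3.35) and H2-Aa 2.24-fold (1.26 to 4.03), none past the call, which understates differences of low genes. H2-Eb1 had 10, 8 and 5 reads. Ciita, at 4, 1 and 12 reads, was 5.15-fold higher (1.56 to 21.9) in IRF8-deficient than in NTB. H2-Oa and H2-Ob had ratios of 0.970 (0.575 to 1.6) and 0.993 (0.559 to 1.72), so their low reads in 4T1-TB had no counterpart in IRF8-deficient. Ctss, the cathepsin that degrades the invariant chain, stood at 8.18, 8.11 and 11.0.

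Of the regulators, Nlrc5 stood at 4.71 in NTB and 5.19 in IRF8-deficient, a ratio of 1.10 (1.01 to 1.2) whose log2 difference changed sign under summed-read scaling, beside ratios of 2.08 to 3.30 for the class I genes called. Rfx5 stood at 10.1, 6.79 and 7.40, Rfxap at 5.81, 4.33 and 6.38, and Rfxank at 3.68, 4.00 and 5.65. The MHC-like genes Cd1d1, which presents lipids to natural killer T cells, and Mr1, which presents vitamin B metabolites to mucosal-associated invariant T cells, were lower than in NTB in both other libraries. Cd1d1 stood at 7.15, 4.76 and 5.74. Mr1 stood at 1.62, 1.01 and 0.672 and was 2.41-fold lower (1.73 to 3.43) in IRF8-deficient than in NTB.

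Set against 4T1-TB in place of NTB, IRF8-deficient had 6 genes of the 32 higher, where 8.83% of all genes passed, and none lower, where 7.07% passed. They were H2-K1 (1.67), B2m (1.57), H2-DMb1 (1.45), H2-D1 (1.2), Tap1 (1.08) and H2-DMb2 (1.02), with the difference in brackets. The median of the set was 0.54 against 0.00 for all genes, and 25 of the 32 lay above 0, against 49.96% of all genes. Tap1 was 2.17-fold higher (2.04 to 2.32), H2-DMb1 3.17-fold (2.57 to 3.94) and H2-DMb2 2.44-fold (1.90 to 3.14). Just under the call lay H2-Aa (0.94), H2-Q4 (0.92), H2-T23 (0.92), Cd74 (0.90), H2-T10 (0.88), H2-Ab1 (0.83) and Nlrc5 (0.81). Of these, H2-Aa passed the filter only through the IRF8-deficient library. H2-DMa was about level, at a ratio of 1.06 (0.898 to 1.26). H2-K1, B2m and H2-DMb1 still passed under summed-read scaling, and all 6 passed relative to the median of all genes on either scaling.

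Genes upstream and downstream of the set were read from lists of the pathway. Of 13 genes of interferon signaling, all compared, none was called in 4T1-TB against NTB. Irf1, a factor that binds the ISRE, stood at 15.1, 15.4 and 21.6. The median of that list was −0.07 in 4T1-TB and 0.47 in IRF8-deficient against NTB. Of 5 chaperones of class I folding, Calr (calreticulin) stood at 1183, 1811 and 588 and was called lower in IRF8-deficient against both others, at −1.01 against NTB, which becomes −0.98 relative to the median of all genes and then does not pass. Pdia3 (ERp57) stood at 297, 434 and 199.7 and was called lower against 4T1-TB. The class I genes called higher (H2-K1, H2-D1, H2-T23 and B2m) and the folding chaperone Calr therefore stood on opposite sides of NTB in the IRF8-deficient library.

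Among 8 cytosolic peptidases that trim or destroy peptides, Lap3 (18.5, 24.6 and 8.02) and Thop1 (15.3, 19.8 and 5.42) were called lower in IRF8-deficient against both others, and Ide (39.8, 44.4 and 21.1) against 4T1-TB. None of the 7 genes of the constitutive proteasome and its activators was called in any comparison, and their median difference from NTB was 0.29 in 4T1-TB and −0.14 in IRF8-deficient. Of 10 genes of endosomal class II processing, 9 were compared. Ctsh, a cathepsin, stood at 19.1, 8.46 and 48.6 and was called lower in 4T1-TB and higher in IRF8-deficient than in NTB. March1, the ubiquitin ligase that sends class II and CD86 to degradation, stood at 0.482, 1.09 and 5.95, and was 12.4-fold higher (10.1 to 15.3) in IRF8-deficient than in NTB. Of 7 costimulatory and checkpoint ligands 3 were compared, and Icosl, the ligand of ICOS, was called higher in IRF8-deficient, at 1.84, 1.41 and 10.2. None of the 5 partners of the SXY module (NF-Y subunits, Creb1 and Atf1) was called.

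The cell label was checked against marker lists. Of 14 granulocyte progenitor markers 13 were in the files and all 13 were above an RPKM of 1 in every library, with sums of 18363, 21562 and 11532. They were not level, however. Cd34 stood at 36.9, 8.73 and 5.41 and was called lower than NTB in both other libraries. Cebpe and Fcgr3 were called higher in IRF8-deficient than in NTB, and no other marker of this list was called against NTB. Markers of mature neutrophils summed to 10136 in the NTB, 14319 in the 4T1-TB and 140658 in the IRF8-deficient library, and of the 14 compared 7 were higher in 4T1-TB and 13 in IRF8-deficient than in NTB. The part of this shift in the class I difference was not tested, and in bulk samples fewer cells of a type and less RNA per cell cannot be told apart. Monocyte and macrophage markers, of which 11 of 16 were compared, summed to 377, 215 and 283, and 5 were lower in 4T1-TB. In IRF8-deficient against NTB 1 of them was higher and 4 were lower. Cells of that lineage carry class II and H2-DM genes, and the part of these markers in the lower H2-DMa was not tested.

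Markers of professional antigen-presenting cells and of other lineages were low. Dendritic cell markers summed to 26.4, 27.0 and 18.4, with Batf3, Cd209a, Ccr7 and Ccr9 at 0 in all 3 libraries, and none of the 4 compared of 14 was called. B cell markers summed to 17.7, 13.1 and 13.6, of which Cd79b alone gave 16.4, 12.3 and 10.3. T and NK cell markers summed to 1.72, 0.828 and 1.17, with Cd3e at 0 in all 3 libraries. Erythroid and megakaryocyte markers summed to 2.92, 1.34 and 2.22, and those of mast cells, basophils and eosinophils to 36.9, 36.2 and 46.3. Within that last list Ear2 stood at 0.249, 0.189 and 24.1 and was called higher in IRF8-deficient than in both others, Prg2 stood at 3.41, 0.484 and 0.640 and was called lower than NTB in both, and Mcpt8 stood at 15.7, 20.4 and 8.73 and was called lower in IRF8-deficient than in 4T1-TB. The part of these cells in the differences of the set was not tested.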

How the data were processed

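RPKM values, 1 per gene symbol and library, were deposited by the authors and used as deposited. Tools in the submitters' processing notes are TopHat2 2.0.13 with mm10, and HTSeq 0.6.1, Picard 1.97, edgeR 3.12.1, cutadapt 1.2.1 and CASAVA 1.8.2 are named beside them, without roles. The annotation, filters, read length and strandedness are not stated there or in the labels, so overlapping genes on opposite strands may share reads. The members and lists were chosen with earlier results of these data known. Named are all members, with values for those called or highest in their role, and called genes of the lists, apart from results not reported here.

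For 10658 genes reaching an RPKM of 1 in any library, log2(RPKM + 1) was subtracted between libraries, which understates low genes, and a size of 1 was called, with no test. Whole reads were recovered from RPKM ratios between libraries. Implied lengths were whole within 0.02 for 91.1% of 10963 genes, and 90.8% of 14553 lay within 0.8 to 1.25 of GENCODE M21 exon lengths. The recovery rule was adjusted with those lengths in view, so neither share is an independent check. Reads gave depth and exact Clopper-Pearson intervals of ratios. At the median gene length an RPKM of 1 rested on 131.9, 65.4 and 76.9 reads in NTB, 4T1-TB and IRF8-deficient. Promoters printed were chosen after differences and motif matches were seen. Analysis used pandas 2.3.3, scipy 1.17.1 and numpy 2.4.6 under Python 3.11.15, with figures from matplotlib 3.10.9, and the code was tested on simulated data.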

Additional observations from a re-analysis of the deposited data

How the results depend on the processing

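No paired analysis was possible because each group had 1 library. Among the 933 alternative values of single members' differences, none turned the sign of a called one, 755 stayed within the counting interval and 178 moved beyond it. With a pseudocount of 0.1 the genes lower in 4T1-TB against NTB numbered 2 (3.32% of all genes compared), those higher and lower in IRF8-deficient against NTB 6 (10.7%) and 2 (10.05%), and those higher in IRF8-deficient against 4T1-TB 11 (11.6%). With a pseudocount of 5 these numbers were 0 (0.197%), 3 (4.94%), 0 (1.40%) and 3 (4.46%). Median ratio scaling, and centring on the median of all genes with or without summed-read scaling, left 0 lower in IRF8-deficient against NTB, where H2-DMa sits at the edge of the call. Scaling by summed reads gave 1 higher (4.33% of all genes) and 2 lower (18.5%) in IRF8-deficient against NTB and 3 higher (4.72%) against 4T1-TB, and without Rn45s 2 (5.36%) and 3 (5.64%) higher. Rescaling without the 20 highest genes of each library gave 3 higher (6.95%) and 1 lower (8.36%) in IRF8-deficient against NTB, losing H2-T23. Against 4T1-TB it gave 5 higher (7.99%), losing H2-DMb2. The call of H2-T23 against NTB was also lost with a pseudocount of 5. At a difference of 2 no gene of the set was called in any comparison (0 throughout). The filters on low values kept every count. Summed reads without Rn45s and both centrings were chosen after seeing the data. Depth limits H2-Aa, H2-Eb1, H2-Oa, H2-Ob and Ciita, each with at most 46 reads in a library.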
